A study of Mus musculus with 65 samples.

Results

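The genes described here are 9 neuronal genes of the microtubule cytoskeleton, the neurofilament and the growth cone: Stmn2, Stmn3, Stmn4, Tubb3, Dcx, Map2, Mapt, Gap43 and Ina. They were chosen by name, all 9 were among the 10407 genes of the tables, and all 9 had at least 5 CPM (reads of a gene scaled to a total of 1000000) in some group. They were followed in 65 single cells from CD1 mouse embryos, each sequenced as 1 library by Patch-seq, a method that aspirates a single cell through a patch pipette. The libraries are 19 embryonic day 15 (E15) progenitors placed in an embryonic day 12 (E12) brain and labelled as transplanted, 26 E15 cells and 20 E12 cells, both labelled FlashTag and wild type. FlashTag is a fluorescent dye given into the ventricle that marks cells dividing at the ventricular surface. The labels call all cells neuronal progenitors, give no host strain and no time between transplantation and collection, and name no animal, litter or host. Cells are not replicates of a condition, so each group stood for 1 sample and nothing was tested between groups. A gene stood past 2-fold where the log2 ratio of CPM, with 1 CPM added to both groups, was at least 1 in size and the higher group had at least 5 CPM.

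A newborn cortical neuron leaves the ventricular surface, migrates and grows an axon, and this rests on microtubules that are assembled, stabilised and remodelled in its growing processes. Stathmins bind tubulin dimers and promote the disassembly of microtubules, Tubb3 is the neuronal beta-tubulin, and Dcx, Map2 and Mapt bind along microtubules and stabilise them. Gap43 is a membrane-bound protein of growth cones, and Ina (alpha-internexin) is the neurofilament protein that appears early in neurons. In the developing cortex these genes are commonly used as markers of postmitotic neurons, as opposed to apical progenitors.

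In GRCm38 (GENCODE vM21) all 9 are protein-coding genes on different chromosomes. Stmn2 lies at chr3:8509360-8561606 on the plus strand, Stmn3 at chr2:181306459-181314500 on the minus strand and Stmn4 at chr14:66344296-66361680 on the plus strand. Tubb3 lies at chr8:123411424-123422015 on the plus strand. Dcx lies at chrX:143855842-143933311 on the minus strand, Map2 at chr1:66175273-66442583 on the plus strand and Mapt at chr11:104231390-104332090 on the plus strand. Gap43 lies at chr16:42248442-42340651 on the minus strand and Ina at chr19:47014698-47025327 on the plus strand. Ina overlaps Nt5c2 on the opposite strand, Map2 overlaps the antisense gene Gm10558, and Tubb3 lies within the span of Gm20388 on the same strand. Whether the counting used strand is not given in the sources used here, so reads from such overlaps cannot be told apart.

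RefSeq promoters in the GRCm38.p6 build, 250 bases before to 50 after a start, were matched for 5 of the 9 genes (Stmn3, Tubb3, Dcx, Map2 and Ina). Of these, 3 are shown because their genes span the range of the differences below, from Stmn3 and Tubb3, which stood past 2-fold between the ages, to Ina, which did not. Capitals mark the E-box CANNTG, the letters bound by basic helix-loop-helix factors such as the proneural proteins, searched as a palindromic pattern that reads alike on both strands.
Stmn3, chr2:181314451-181314750, minus strand: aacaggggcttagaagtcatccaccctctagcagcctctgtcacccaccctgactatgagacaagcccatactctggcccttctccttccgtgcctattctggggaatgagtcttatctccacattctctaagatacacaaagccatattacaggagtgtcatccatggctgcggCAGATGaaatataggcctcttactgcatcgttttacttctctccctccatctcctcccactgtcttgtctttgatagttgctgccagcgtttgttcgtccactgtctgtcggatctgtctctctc
Tubb3, chr8:123411303-123411602, plus strand: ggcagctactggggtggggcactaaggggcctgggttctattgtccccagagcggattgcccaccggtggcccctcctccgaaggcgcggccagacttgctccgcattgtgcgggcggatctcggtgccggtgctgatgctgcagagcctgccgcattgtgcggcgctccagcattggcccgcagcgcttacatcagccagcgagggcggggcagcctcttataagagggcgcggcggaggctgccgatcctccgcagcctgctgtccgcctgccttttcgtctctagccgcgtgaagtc
Ina, chr19:47014431-47014730, plus strand: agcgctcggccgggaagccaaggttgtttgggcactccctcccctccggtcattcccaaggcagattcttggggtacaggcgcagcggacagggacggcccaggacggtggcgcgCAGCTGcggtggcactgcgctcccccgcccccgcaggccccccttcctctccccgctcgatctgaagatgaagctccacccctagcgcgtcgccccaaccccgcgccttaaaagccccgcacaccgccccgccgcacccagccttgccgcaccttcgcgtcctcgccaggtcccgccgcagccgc
Stmn3 had 1 E-box, which starts 75 bases before the start of transcription, and Ina had 1, which starts 135 bases before it. The Tubb3, Dcx and Map2 windows had 0 matches. Of 32851 promoters of the same length, 72.3% held an E-box, so a match is common and its absence says only that these letters are not in this window. Tubb3, Map2 and Ina have GC-rich windows (67.3%, 77.7% and 71.7% GC), whereas Stmn3 has 49.7% GC and the median of all promoters was 52.7%.

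Libraries held 22358 to 3622411 reads in transplanted cells (median 166134), 11449 to 4560871 in E15 cells (median 998630) and 10928 to 1635767 in E12 cells (median 148824). The label many-gene library is used for 16 libraries in which over 8000 genes had a read: 5 of the 19 transplanted, 11 of the 26 E15 and 0 of the 20 E12 ones. All 9 genes were detected in each of the 16. For 13 of 14 listed genes of ventral telencephalon and interneurons, the median summed level was 3035 CPM in the 5 transplanted and 4104 CPM in the 11 E15 many-gene libraries. It was 662 CPM in the other 14 transplanted, 625 CPM in the other 15 E15 and 256 CPM in the E12 libraries. The median sum of 15 microglia and macrophage genes was 30.6 and 3196 CPM in transplanted and E15 many-gene libraries, and 442, 119 and 37.7 CPM in the other transplanted, the other E15 and the E12 libraries. That of 22 apical progenitor genes was 3804 and 3053 CPM in transplanted and E15 many-gene libraries, and 9163, 25679 and 11466 CPM in the other transplanted, the other E15 and the E12 libraries. Over single cells the apical progenitor sum ran from 1825 to 24232 CPM in transplanted, from 1155 to 47516 CPM in E15 and from 1054 to 19327 CPM in E12 libraries, so every library carried reads of these genes. The ventral sum ran from 0 to 3404 CPM in transplanted, from 7.92 to 5497 CPM in E15 and from 0 to 2259 CPM in E12 libraries, with Gsx2 at 0 in all E12 libraries. The microglia sum ran from 0 to 25940 CPM in transplanted, from 2.64 to 10655 CPM in E15 and from 0 to 563 CPM in E12 libraries. The sum of 5 of 8 erythroid genes ran from 25.2 to 64865 CPM in transplanted, from 5.07 to 57643 CPM in E15 and from 322 to 21298 CPM in E12 libraries. The 1 of 9 endothelial and pericyte genes in the tables was at 2.75 CPM in transplanted, 2.99 CPM in E15 and 18.4 CPM in E12 cells. The part of these lists in the results below was not tested, and values of the 9 genes and of the other lists are also given over the remaining 49 libraries.

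Most cells had reads of several of the 9 genes, and E15 cells had reads of more of them than E12 cells. The median cell had reads of 7 of the 9 genes in the transplanted group, of 9 at E15 and of 5.5 at E12. All 9 were found together in 6 of 19 transplanted cells (31.6%, exact 95% binomial limits 12.6 to 56.6), 15 of 26 E15 cells (57.7%, 36.9 to 76.6) and 1 of 20 E12 cells (5.0%, 0.127 to 24.9). Limits on shares of cells, here and below, take cells as independent draws and hold no spread between animals. With each cell thinned to 30000 reads, which left out 3 transplanted, 2 E15 and 3 E12 cells, the shares were 4 of 16 transplanted (25%, 7.27 to 52.4), 10 of 24 E15 (41.7%, 22.1 to 63.4) and 1 of 17 E12 cells (5.88%, 0.149 to 28.7). With the many-gene libraries included, the order of the groups was the same at equal depth. The many-gene libraries made up much of it: among the remaining libraries all 9 were found in 1 of 14 transplanted and 4 of 15 E15 cells. Thinned to 30000 reads, these remaining libraries had all 9 in 0 of 11 transplanted and 2 of 13 E15 cells. In this count transplanted cells no longer stood above E12 cells. The median thinned cell of these libraries still had reads of 6 genes in the transplanted group, 6 at E15 and 4 at E12.

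**Figure D1:**
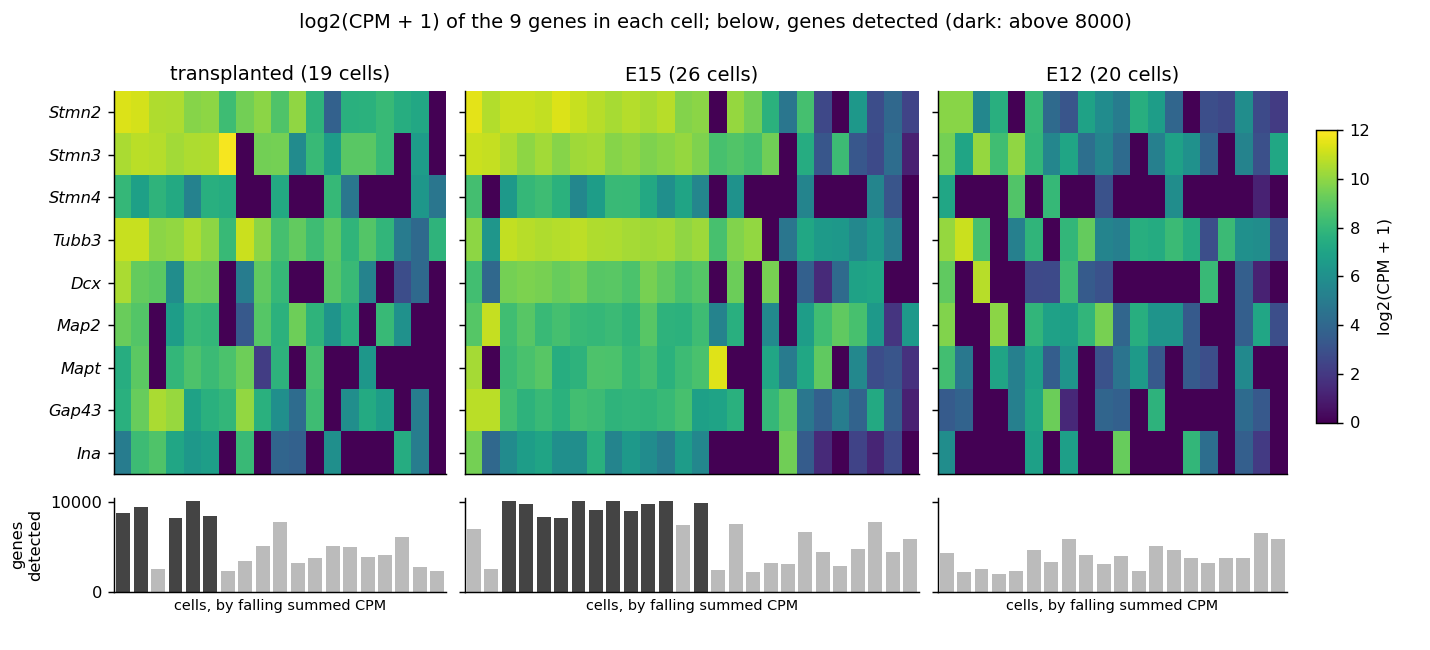
Levels of the 9 genes in each of the 65 cells as log2(CPM + 1), with cells in columns ordered by falling summed CPM within the transplanted, E15 and E12 groups, and with the number of genes detected per library as bars below (dark bars, above 8000 genes). Most of the 16 many-gene libraries stand among the highest columns of their groups, but E15 replicate 15, at 4323 CPM, lies below the E15 median of 4391 CPM. Of the 20 E12 columns 1, against 15 of 26 E15 columns, has none of the 9 genes at 0.

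Stmn2, a stathmin of growing axons, ranged over 0, 414 and 2653 CPM in transplanted cells (lowest, median and highest), over 0, 1030 and 2938 CPM in E15 cells and over 0, 39.0 and 938 CPM in E12 cells. The groups overlapped, although 0 of the 20 E12 cells lay above the E15 median. In summed reads Stmn2 stood at 1113 CPM (95% limits 1094 to 1131) in transplanted, 1517 CPM (1505 to 1529) in E15 and 118 CPM (109 to 128) in E12 cells. These are exact Poisson limits for counting error alone: without molecular identifiers, PCR copies of 1 molecule count as several reads. The E15 over E12 ratio was 12.8 (11.8 to 13.95), the highest of the 9 genes, and that of transplanted over E15 cells was 0.733 (0.720 to 0.747). A single E12 cell, replicate 19, held 65.9% of the E12 reads of Stmn2, and the E12 level was 43.9 CPM without it. Over the 49 libraries Stmn2 was at 523 CPM in transplanted and 699.8 CPM in E15 cells, still past 2-fold above E12. E15 replicate 10 held 56.5% of those E15 reads (352 CPM without it).

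Stmn3, a membrane-bound neuronal stathmin, ranged over 0, 491 and 3679 CPM in transplanted, 0, 813 and 2104 CPM in E15 and 0, 55.6 and 1099 CPM in E12 cells. The highest cell of all was transplanted replicate 5, and the groups overlapped over most of their range. Summed reads gave 1157 CPM in transplanted, 947 CPM in E15 and 130.1 CPM in E12 cells (77.0 CPM without E12 replicate 19), with ratios of 7.28 (6.73 to 7.88) for E15 over E12 and 1.22 (1.20 to 1.25) for transplanted over E15. Stmn3 was thus slightly higher in transplanted than in E15 cells, where Stmn2 was lower. Both groups remained past 2-fold above E12 without the many-gene libraries, at 620.1 CPM in transplanted and 579.7 CPM in E15 cells (343 CPM without E15 replicate 10).

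Stmn4, the third neuronal stathmin measured, was the least often detected over the 65 cells, with a read in 12 of 19 transplanted (63.2%, exact limits 38.4 to 83.7), 17 of 26 E15 (65.4%, 44.3 to 82.8) and 6 of 20 E12 cells (30%, 11.9 to 54.3). Its cells ranged over 0, 38.9 and 259 CPM in the transplanted group, 0, 44.9 and 336 CPM at E15 and 0, 0 and 431 CPM at E12, so the highest cell was an E12 cell. At 30000 reads per cell it had a read in 10 of 16 transplanted, 14 of 24 E15 and 3 of 17 E12 cells. The groups therefore differed in how many cells had Stmn4 reads, while the cells with reads overlapped in level. Summed levels were 106 CPM in transplanted, 126 CPM in E15 and 24.7 CPM in E12 cells (14.6 CPM without E12 replicate 19), and the E15 over E12 ratio was 5.09 (4.25 to 6.15). Over the 49 libraries Stmn4 was at 97.6 CPM in transplanted cells, of which replicate 19 held 88.1% (26.3 CPM without it), and at 92.4 CPM in E15 cells (54.6 CPM without replicate 10). On the mean of per-cell CPM without the many-gene libraries the direction of E15 over E12 was lost, with a log2 ratio of -0.10.

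Tubb3 was the member read in most cells, 19 of 19 transplanted, 24 of 26 E15 and 18 of 20 E12. Its level ranged over 16.2, 519 and 2136 CPM in transplanted, 0, 1010.0 and 1923 CPM in E15 and 0, 168 and 2108 CPM in E12 cells. The highest cells of the 3 groups thus reached like levels, and the medians differed. Summed reads stood at 1149 CPM in transplanted, 1249.6 CPM in E15 and 227 CPM in E12 cells (149.6 CPM without E12 replicate 19). The E15 over E12 ratio was 5.50 (5.19 to 5.85). Over the 49 libraries the levels were 539.7 CPM in transplanted and 453 CPM in E15 cells (294 CPM without E15 replicate 6), and the log2 ratio of E15 over E12 was 0.99, just short of 2-fold. Reads of Tubb3 can be hard to tell from those of other beta-tubulin genes, whose coding sequences are close, so its counts carry that uncertainty.

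Dcx, which binds microtubules of migrating neurons, ranged over 0, 57.3 and 1415 CPM in transplanted, 0, 379 and 786 CPM in E15 and 0, 0.611 and 1679 CPM in E12 cells. Reads were found in 14 of 19 transplanted, 21 of 26 E15 and 10 of 20 E12 cells, and at 30000 reads per cell in 11 of 16 transplanted, 18 of 24 E15 and 5 of 17 E12 cells. Transplanted cells thus had a lower median than E15 cells but a higher top, and the highest single cell was E12 replicate 7. Summed levels were 490.7 CPM in transplanted, 487 CPM in E15 and 115 CPM in E12 cells, with a transplanted over E15 ratio of 1.01 (0.980 to 1.04) and an E15 over E12 ratio of 4.23 (3.89 to 4.60). Dcx was at 271 CPM in transplanted and 205 CPM in E15 cells once the many-gene libraries were left out, and its log2 ratio of E15 over E12 was 0.83.

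Map2, a microtubule-associated protein of dendrites, differed under 2-fold between the groups in summed reads, but its median over all cells differed more between the ages. It ranged over 0, 181 and 662 CPM in transplanted, 0, 262 and 1957 CPM in E15 and 0, 72.7 and 956 CPM in E12 cells. Reads were found in 14 of 19 transplanted, 24 of 26 E15 and 15 of 20 E12 cells, and at 30000 reads per cell in 12 of 16 transplanted, 22 of 24 E15 and 9 of 17 E12 cells. The ranges of the groups overlapped throughout. Summed reads gave 279.6 CPM in transplanted, 273 CPM in E15 and 177 CPM in E12 cells, an E15 over E12 ratio of 1.54 (1.44 to 1.66) and a transplanted over E15 ratio of 1.02 (0.986 to 1.06). Map2 was thus 1 of 2 members under 2-fold between the ages. E12 replicate 19 held 39.6% of its E12 reads, and without that cell Map2 was past 2-fold, with log2 ratios of 1.22 for E15 over E12 and 1.26 for transplanted over E12. Among the 49 libraries the log2 ratios stood at 0.16 for E15 over E12 and 0.42 for transplanted over E12.

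Mapt, which encodes the axonal protein tau, ranged over 0, 80.3 and 656 CPM in transplanted, 0, 208 and 2756 CPM in E15 and 0, 10.3 and 329 CPM in E12 cells. Reads were found in 11 of 19 transplanted, 22 of 26 E15 and 14 of 20 E12 cells. At 30000 reads per cell the counts were 8 of 16 transplanted, 18 of 24 E15 and 7 of 17 E12 cells. With all libraries, transplanted cells had the lowest share with a read over all depths, but not at equal depth, and a median between the other groups. Without the many-gene libraries their share was lowest at equal depth too, with 3 of 11 transplanted, 7 of 13 E15 and 7 of 17 E12 cells. Their median was then 0 CPM, against 31.2 CPM in E15 and 10.3 CPM in E12 cells. Summed reads stood at 279 CPM in transplanted, 287 CPM in E15 and 46.7 CPM in E12 cells, with an E15 over E12 ratio of 6.15 (5.40 to 7.04). Mapt was higher at E15 than at E12 in each of the 8 pools into which the labels divide the libraries. All genes leaned the same way within pools, with a median log2 ratio of 1.33 averaged over pools. Among the 49 libraries Mapt was at 157.5 CPM in transplanted cells, where replicate 19 held 75.8% of the reads (86.1 CPM without it), and at 298 CPM in E15 cells, where replicate 10 held 60.2% (137 CPM without it). E12 replicate 19 held 58.4% of the E12 reads of Mapt (21.2 CPM without it).

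Gap43 ranged over 0, 161 and 1446 CPM in transplanted, 0, 218 and 1739.6 CPM in E15 and 0, 5.39 and 633 CPM in E12 cells. It had a read in 16 of 19 transplanted (84.2%, exact limits 60.4 to 96.6), 25 of 26 E15 (96.2%, 80.4 to 99.9) and 11 of 20 E12 cells (55.0%, 31.5 to 76.9). At 30000 reads per cell the counts were 12 of 16 transplanted, 22 of 24 E15 and 6 of 17 E12 cells, so the lower share at E12 was seen at equal depth too. Of all pairs of an E15 and an E12 cell, the E15 cell was higher in 84.1%, with ties split evenly, which is the largest such share of the 9 genes. Summed reads gave 312 CPM in transplanted, 302 CPM in E15 and 39.3 CPM in E12 cells, with an E15 over E12 ratio of 7.69 (6.67 to 8.90) and a transplanted over E15 ratio of 1.04 (0.998 to 1.07). Transplanted replicate 14 held 45.4% of the transplanted reads of Gap43 (195 CPM without it) and E12 replicate 18 held 58.8% of the E12 reads (16.8 CPM without it). Like Mapt, Gap43 was higher at E15 in each of the 8 pools, where 59.6% of all genes stood past 2-fold higher on the average over pools. The 49 libraries gave 151 CPM in transplanted and 388 CPM in E15 cells, of which E15 replicate 10 held 60.3% (178 CPM without that cell).

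Ina was the member with the smallest difference between the ages in summed reads over all cells, while over the 49 libraries Map2 was (log2 ratio 0.16). It ranged over 0, 32.4 and 409 CPM in transplanted, 0, 37.0 and 711 CPM in E15 and 0, 0 and 587 CPM in E12 cells, with a read in 12 of 19 transplanted, 20 of 26 E15 and 8 of 20 E12 cells. Summed reads stood at 91.6 CPM in transplanted, 85.8 CPM in E15 and 70.8 CPM in E12 cells, and the E15 over E12 ratio was 1.21 (1.08 to 1.36). At 30000 reads per cell Ina had a read in 11 of 16 transplanted, 12 of 24 E15 and 5 of 17 E12 cells. A larger share of E15 than of E12 cells had Ina reads, but at equal depth this hung on the many-gene libraries. Without them the counts at 30000 reads per cell were 6 of 11 transplanted, 3 of 13 E15 and 5 of 17 E12 cells. The summed level hung on single cells. E12 replicate 9 held 57.4% of the E12 reads (32.4 CPM without it), and the log2 ratio of E15 over E12 ran between -0.28 without E12 replicate 5 and 1.38 without E12 replicate 9. For transplanted over E12 cells the ratios without these cells were -0.19 and 1.47. Among the 49 libraries the log2 ratios were 0.85 for E15 over E12 and -0.77 for transplanted over E12. Of the E15 libraries with up to 8000 genes, E15 replicate 10 held 74.5% of the Ina reads (37.9 CPM without it).

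**Figure D2:**
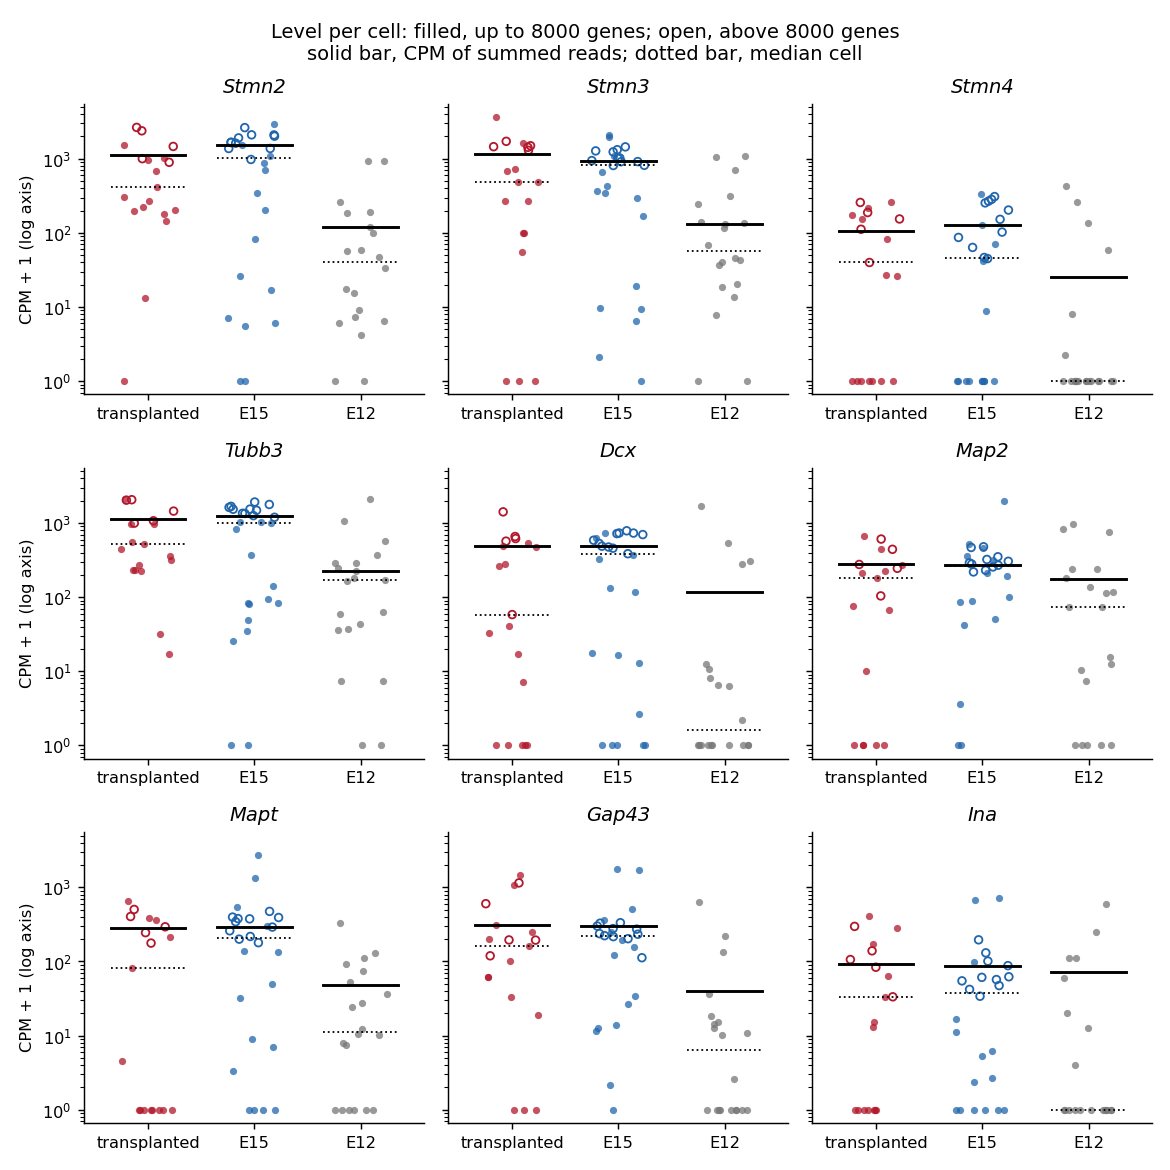
Level of each gene per cell as CPM + 1 on a log axis in transplanted, E15 and E12 cells, with points at 1 for cells without a read, open points for many-gene libraries, solid bars for the CPM of summed reads and dotted bars for the median cell. The many-gene libraries lie near or above the solid bars for Stmn2, Stmn3 and Tubb3, with Tubb3 between 997 and 2064 CPM in the 5 transplanted and between 1196.5 and 1923 CPM in the 11 E15 ones.

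The comparison of E15 with E12 cells asks what separates dye-labelled cells of the 2 ages. All 9 genes were higher at E15, and 7 of them stood past 2-fold (Stmn2, Stmn3, Stmn4, Tubb3, Dcx, Mapt and Gap43), where 25.3% of the 10193 genes compared stood past 2-fold higher and 20.3% lower. Their median log2 ratio was 2.46, against -0.03 over all genes compared. Without the many-gene libraries all 9 were still higher, with a median of 1.86, and 5 stood past 2-fold (Stmn2, Stmn3, Stmn4, Mapt and Gap43), where 24.2% of all genes did and 21.6% were lower. On the mean of per-cell CPM without these libraries, which lets each cell weigh alike, the median was 0.82 and 4 genes stood past 2-fold (Stmn2, Stmn3, Mapt and Gap43), where 22.1% of all genes did and 24.4% were lower. Size thus depended strongly on the many-gene libraries and on weighting, while Stmn2, Stmn3, Mapt and Gap43 stood past 2-fold in each of these 3 settings. All 3 use reads recovered from the deposited log10 values. On the deposited values themselves, described below, only Gap43 stood past 2-fold (log2 ratio 1.29), where 2.87% of all genes were higher and 1.06% lower. Stmn2 was then at 0.26, Mapt at 0.56 and Stmn3 at -0.14. Single cells moved the median between 2.01 without E12 replicate 5, the deepest E12 library, and 3.03 without E12 replicate 19. Leaving out pools moved it between 1.88 without pool E and 3.62 without pool A.

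The comparison of transplanted with E15 cells asks whether older progenitors in a younger brain differ from those of their own age. In summed reads the 2 groups were close for all 9 genes: 5 were higher and 4 lower in transplanted cells, and the log2 ratios ran from -0.45 for Stmn2 to 0.29 for Stmn3. None stood past 2-fold in either direction, against 4.71% of the 10163 genes compared higher and 11.8% lower. The median was 0.01, against -0.08 over all genes. Without the many-gene libraries the spread widened, from -1.62 for Ina to 0.40 for Dcx, around a median of 0.08. Gap43 and Ina then stood past 2-fold lower in transplanted cells, against 28.0% of all genes lower and 18.7% higher, and without E15 replicate 10 the E15 levels of both were under 2-fold from the transplanted ones (Gap43 151 CPM in transplanted and 178 CPM in E15 cells, Ina 41.2 CPM in transplanted and 37.9 CPM in E15 cells). On the mean of per-cell CPM without these libraries Mapt was the 1 gene past 2-fold lower, against 25.3% of all genes lower and 22.5% higher. Median cells differed more than sums did: the transplanted median was below the E15 median for each of the 9 genes, as with Dcx at 57.3 CPM in transplanted against 379 CPM in E15 cells. Over the 49 libraries that order turned for 5 of the 9 genes (Stmn2, Stmn4, Tubb3, Dcx and Ina), as with Stmn2 at medians of 246 CPM in transplanted and 82.8 CPM in E15 cells and Ina at 6.02 CPM in transplanted and 1.67 CPM in E15 cells.

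Set against E12 cells, which share the age of the host brain, transplanted cells had higher levels of all 9 genes. The 7 genes past 2-fold were those of the comparison of ages, where 22.9% of the 9931 genes compared stood past 2-fold higher and 24.7% lower. The median log2 ratio was 2.33, against -0.09 over all genes, and the ratio was 9.42 (8.67 to 10.2) for Stmn2, 7.96 (6.89 to 9.24) for Gap43, 1.58 (1.47 to 1.71) for Map2 and 1.29 (1.15 to 1.46) for Ina. Without the many-gene libraries 8 genes were higher and Ina was lower (log2 ratio -0.77), the median was 1.73, and 7 genes stood past 2-fold, where 22.5% of all genes were higher and 29.8% lower. On the mean of per-cell CPM without these libraries the median was 0.80 and 4 genes stood past 2-fold (Stmn2, Stmn3, Mapt and Gap43), where 21.2% of all genes did and 26.7% were lower. This comparison shares its E12 cells with that of the ages and its transplanted cells with the one above, so the 3 sets of ratios are not independent of each other.

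The pools named in the labels allow the groups to be set side by side within a pool, although a pool held only 1 to 5 cells of a group. Of the 8 pools with both ages, E15 cells were higher in 8 for Mapt and Gap43, in 7 for the 3 stathmins, Tubb3, Dcx and Ina, and in 6 for Map2. Of the 7 pools with transplanted and E15 cells, transplanted cells were higher in 5 for Stmn3 and Ina, in 4 for Map2 and Gap43, in 3 for Stmn2, Stmn4, Tubb3 and Dcx, and in 2 for Mapt. Against E12 cells they were higher in 7 of 7 pools for Stmn3, in 6 for Stmn2 and Tubb3, in 5 for Stmn4, Map2, Mapt and Gap43, and in 4 for Dcx and Ina. Most genes of the tables went the same way against E12 within pools: averaged over pools, all genes had a median of 1.33 on the log2 scale for E15 over E12, with 59.6% past 2-fold higher, and one of 0.80 for transplanted over E12, with 44.5% past 2-fold higher. For transplanted over E15 cells the all-gene median within pools was -0.63. The pool counts of the 9 genes stand against that background, and the share of all genes higher in as many pools was not computed. Over pairs of single cells the transplanted cell was above the E15 cell in 37.7% of pairs for Map2 up to 50% for Tubb3, and above the E12 cell in 55.9% for Map2 up to 83.9% for Stmn2.

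**Figure D3:**
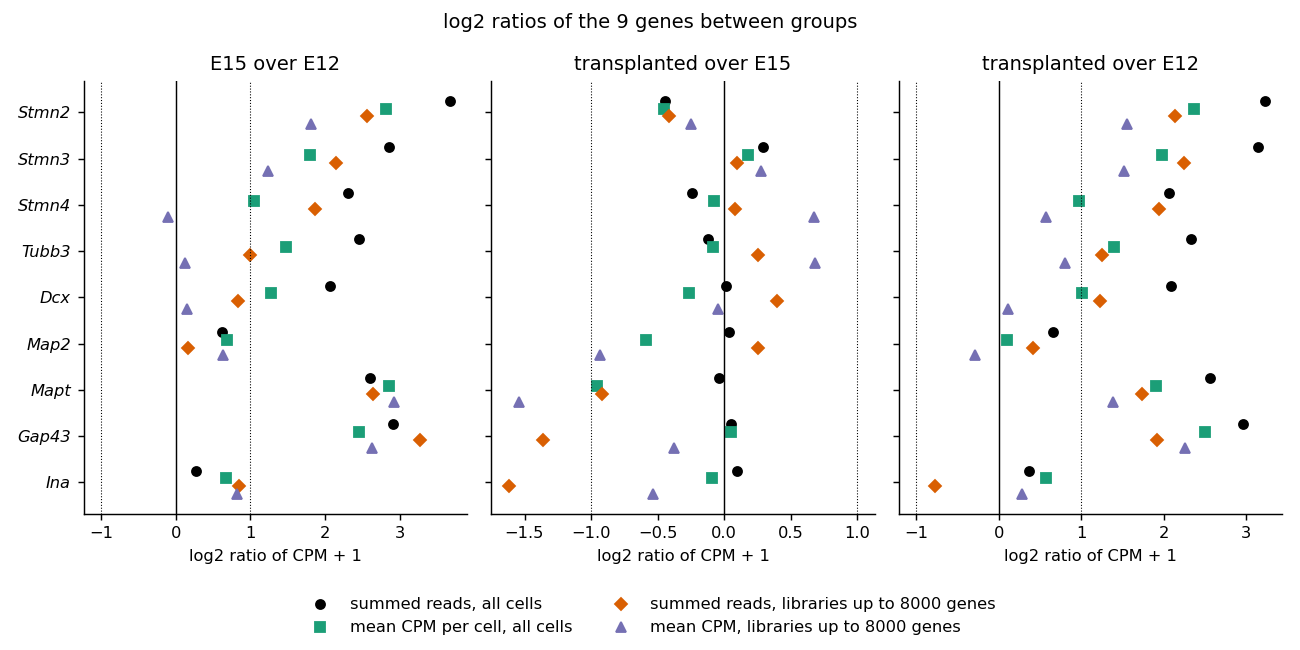
log2 ratios of CPM + 1 of the 9 genes for E15 over E12, transplanted over E15 and transplanted over E12, from summed reads and from mean CPM per cell, each over all cells and over libraries with up to 8000 genes; dotted lines mark 2-fold. In summed reads over all cells the ratios against E12 run from 0.27 to 3.67 and those of transplanted over E15 lie between -0.45 and 0.29.

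Levels of the 9 genes were positively correlated from cell to cell. Within-group ranks of CPM, pooled over the 65 cells, gave a positive Spearman correlation for 36 of the 36 pairs of members, with a median of 0.38, from 0.14 for Map2 with Ina to 0.67 for Stmn2 with Tubb3. Such correlations are descriptions over cells that share library preparation and differ in depth. The share of positive pairs among all genes was not computed. For scale, the correlation of other genes with the summed 9 genes had a median of 0.13 in all cells and -0.07 in the 49 libraries. At 30000 reads per cell (57 cells) the median was 0.42, and without the many-gene libraries (49 cells) 35 of 36 pairs were above 0 and their median was 0.22. The tie between Stmn2 and Tubb3 was the closest in all cells and, at 0.48, in the 49 cells as well. At 30000 reads per cell without the many-gene libraries (41 cells) Stmn2 was closer to Gap43 (0.65) than to Tubb3 (0.59).

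E15 cells with high sums of the 9 genes had low sums of the 22 apical progenitor genes, which include Pax6, Sox2 and Hes5, and in the other groups this was weaker. The rank correlation was -0.59 over the 65 cells, -0.59 in transplanted, -0.83 in E15 and -0.26 in E12 cells. Without the many-gene libraries it was -0.36 over 49 cells, -0.13 in transplanted and -0.71 in E15 cells. The correlation with 19 other neuronal genes was 0.63 over all cells, 0.29 in transplanted, 0.90 in E15 and 0.60 in E12 cells, and without the many-gene libraries 0.46 over 49 cells, -0.03 in transplanted and 0.72 in E15 cells. Both values were largest in size in E15 cells, and the difference between the groups was not tested. The sum of the ventral telencephalon list had a correlation of 0.45 over all cells, 0.69 in transplanted, 0.56 in E15 and 0.08 in E12 cells. That of the microglia list had 0.43 over all cells, -0.02 in transplanted, 0.73 in E15 and 0.47 in E12 cells. Over all cells the sums of intermediate progenitor (0.15) and erythroid genes (-0.08), reads per cell (0.24) and genes detected (0.20) had smaller values. Within groups the signs differed. Reads per cell gave 0.60 in transplanted, 0.40 in E15 and -0.31 in E12 cells. Genes detected gave 0.49 in transplanted, 0.49 in E15 and -0.45 in E12 cells. The erythroid value was 0.37 over the 49 libraries.

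Some cells outside the many-gene libraries had as much of the 9 genes. The lowest many-gene library summed to 4323 CPM, and 3 of the other 14 transplanted, 3 of the other 15 E15 and 1 of the 20 E12 libraries stood at or above that. E15 replicate 10 was the highest of all with 10939 CPM, beside 3375 CPM of apical progenitor, 5665 CPM of other neuronal and 8633 CPM of microglia and macrophage genes. Transplanted replicate 9, at 6676 CPM, had 9759 CPM of apical progenitor genes and 351 CPM of other neuronal genes. E12 replicate 19, at 4644 CPM, had 8421 CPM of other neuronal genes. High levels of the 9 genes thus occurred beside both high and low levels of other neuronal genes. Among the libraries at or above 4323 CPM the microglia sum went down to 3.03 CPM, in transplanted replicate 4. Microglial reads were also found below that limit, as in E15 replicate 13, with 517 CPM of the 9 genes and 119 CPM of microglia genes. The highest microglia sum of all, 25940 CPM in transplanted replicate 8, stood beside 251 CPM of the 9 genes. Transplanted replicate 18 had 8188 CPM of microglia genes beside 3796 CPM of the 9 genes.

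**Figure D4:**
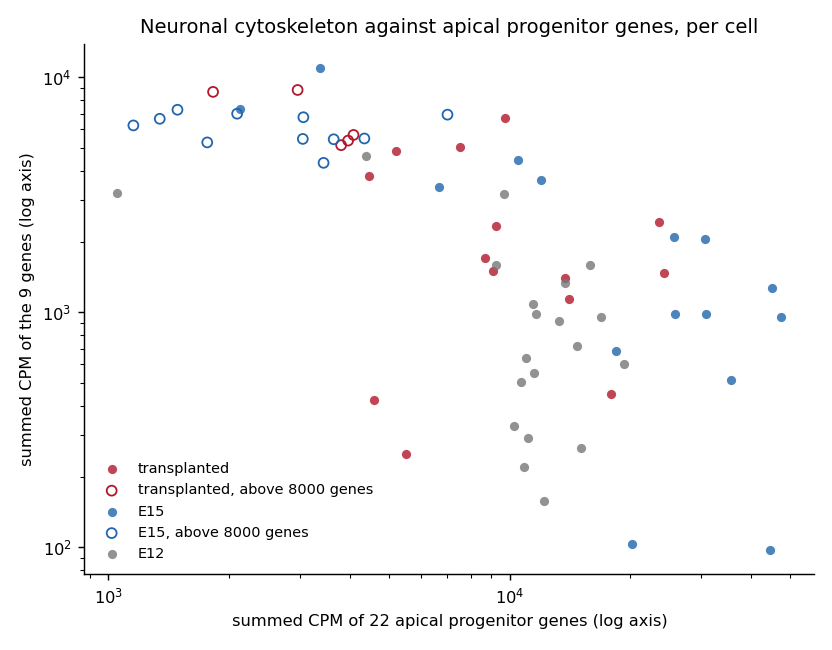
Summed CPM of the 9 genes (vertical, log axis) against summed CPM of 22 apical progenitor genes (horizontal, log axis), 1 point per cell, with open points for many-gene libraries of transplanted and E15 cells. The many-gene libraries lie at the upper left, at 4323 CPM or more of the 9 genes, and E15 cells of up to 8000 genes stretch to the lower right, down to 97.4 CPM.

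Other genes of the same machinery were in part higher at E15 too. For E15 over E12 their counts stand beside 25.3% of all genes past 2-fold higher and 20.3% lower, around a median of -0.03. Over the 49 libraries these shares were 24.2% higher and 21.6% lower. For transplanted over E15 cells they were 4.71% higher and 11.8% lower, and over the 49 libraries 18.7% higher and 28.0% lower. Of 11 other tubulin and stathmin genes, 9 stood past 2-fold higher and 0 lower at E15 than at E12, with a median log2 ratio of 1.44. Leaving out the many-gene libraries gave 7 higher and 0 lower, and the median again came to 1.44. Tuba1a, the main alpha-tubulin of young neurons, stood at 14796 CPM at E15 against 3517 CPM at E12 and, over the 49 libraries, at 7375 CPM at E15. Tubb6 had 33.9 CPM at E15 against 0.607 CPM at E12, with a read in 15 of 26 E15 and 2 of 20 E12 cells, and Tuba1c 78.0 CPM at E15 against 9.51 CPM at E12. In transplanted over E15 cells the median of this list was -0.17 and Tuba1c (32.4 CPM in transplanted against 78.0 CPM in E15 cells) was the 1 gene past 2-fold, whereas 0 of 11 were over the 49 libraries. There Tubb6 was at 13.7 CPM and Tuba1c at 41.2 CPM in E15 cells. Reads of tubulin genes are hard to assign among close copies, so single members are uncertain.

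Among other microtubule-associated proteins the picture was mixed. At E15 against E12, 6 of 23 measured genes stood past 2-fold higher and 4 lower, and the median was 0.24. That median turned to -0.29 over the 49 libraries, where 6 genes stood past 2-fold higher and 6 below. Clasp1, which stabilises microtubule plus ends, was at 90.6 CPM at E15 against 13.6 CPM at E12, and Clip1, a plus-end protein, at 68.7 CPM at E15 against 10.5 CPM at E12 (43.1 CPM at E15 over the 49 libraries). Map1b, the member of this list with the highest CPM, was at 2184 CPM at E15 against 1337 CPM at E12, but over the 49 libraries its log2 ratio was -0.35. Map1a was at 49.4 CPM in transplanted against 6.27 CPM in E12 cells, and Dclk2, a kinase related to Dcx, at 309 CPM in transplanted against 54.8 CPM in E12 cells. Between transplanted and E15 cells the list had 0 of 23 genes past 2-fold, but over the 49 libraries 6 were higher and 5 lower, beside 18.7% of all genes higher and 28.0% lower.

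The 4 other intermediate filament genes measured differed in direction, with both neurofilament genes above E12 levels at E15 and Nes and Vim below. Nefl, the light neurofilament subunit, was at 27.1 CPM in transplanted, 25.2 CPM in E15 and 2.83 CPM in E12 cells. Nefm stood at 136 CPM in transplanted, 98.5 CPM in E15 and 57.7 CPM in E12 cells, but over the 49 libraries at 169 CPM in transplanted and 21.9 CPM in E15 cells, so that E15 cells were then below E12 cells. Nes, the nestin gene of progenitors, was lower, with 78.0 CPM at E15 against 242 CPM at E12, and Vim, the vimentin gene of radial glia, was at 701 CPM at E15 against 1079 CPM at E12. Nes and Vim also belong to the apical progenitor list. Among the 49 libraries Vim was at 1192 CPM in transplanted and 1672 CPM in E15 cells, both above the E12 level, and Nes at E15 was at 153 CPM, under 2-fold below E12.

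Of the growth cone genes, 11 of 22 measured stood past 2-fold higher and 1 lower at E15 against E12, and the median was 0.95. This rested in part on the many-gene libraries: without them the median was 0.35, with 5 of 22 genes past 2-fold higher and 2 lower, where 24.2% of all genes were higher. Rtn1, a reticulon of neurons, was at 1266 CPM at E15 against 242 CPM at E12, and Dpysl4, a collapsin response mediator protein, at 125 CPM at E15 against 23.9 CPM at E12. Dpysl3, another of that family, was at 1689 CPM in transplanted against 277 CPM in E12 cells (795 CPM in transplanted cells over the 49 libraries). Tmsb4x, an actin-binding thymosin, had the highest CPM of the list, with 20334 CPM in transplanted, 26814 CPM in E15 and 8282 CPM in E12 cells. Enah, an actin regulator of filopodia, was at 158 CPM in transplanted against 105 CPM in E15 cells, and over the 49 libraries it was past 2-fold higher, at 186 CPM in transplanted against 59.8 CPM in E15 cells.

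Kinesins and tau kinases split. At E15 against E12, 6 of 17 genes stood past 2-fold higher and 2 in the other direction, around a median of 0.53. These counts were the same over the 49 libraries, around a median of 0.41. Cdk5r1, the neuronal activator of the tau kinase Cdk5, was at 140.5 CPM at E15 against 6.07 CPM at E12, and Kif5a, a neuronal kinesin of axonal transport, at 45.5 CPM at E15 against 2.02 CPM at E12. Both were also higher in transplanted than in E12 cells, with 137 CPM of Cdk5r1 and 49.0 CPM of Kif5a in transplanted cells. Among the 49 libraries Cdk5r1 was at 99.6 CPM in transplanted and 78.6 CPM in E15 cells, and Kif5a at 21.8 CPM in transplanted and 14.4 CPM in E15 cells. Kif1b, a kinesin of vesicle transport, went the other way, at 153 CPM at E15 against 418 CPM at E12, but over the 49 libraries its log2 ratio was -0.95. Between transplanted and E15 cells only Kif3b of the list stood past 2-fold (7.08 CPM in transplanted against 21.1 CPM in E15 cells). Of all genes 4.71% were higher and 11.8% lower. Over the 49 libraries 3 genes of the list were past 2-fold higher and 3 lower, beside 18.7% of all genes higher and 28.0% lower. Kif5b, a kinesin found in most cell types, was at 361 CPM in transplanted against 190.3 CPM in E15 cells, and over the 49 libraries its log2 ratio was 1.74.

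Over 9545 genes read in at least 25% of the cells, the genes whose within-group ranks were most like those of the summed 9 genes were Tuba1a (0.70), Tmsb10 (0.67), Nnat (0.67), Prdx2 (0.64), Card9 (0.64) and Syn1 (0.63). The median over these genes was 0.13. At equal depth Nnat, Tmsb10 and Tuba1a took ranks 1 to 3, while Card9 dropped to rank 148. Without the many-gene libraries Prdx2, Nnat, Tmsb10 and Tuba1a held ranks 1, 3, 4 and 6, and Syn1 stood at rank 59. The lowest values belonged to Pax6 (-0.61), Eprs (-0.59) and Dbi (-0.52), of which Pax6 and Dbi are in the apical progenitor list.

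The values as the authors deposited them carried much less of the age difference for these 9 genes. The deposited log10 values had 2 further directions over cells removed by regression, and those directions held 74.5% of the variance of genes detected per library and 24.2% of that of E12 membership. The removal took 65.7% of the variance of Stmn2, 60.5% of Tubb3, 58.4% of Dcx and 54.7% of Stmn3, against a median of 14.8% over all genes and 17.4% of Ina. Before removal, the mean difference of E15 minus E12 cells in log10 units was above 0 for all 9 genes, with a median of 0.59 and a range of 0.25 to 0.81. After removal it was above 0 for 5 and below 0 for 4, with a median of 0.07, from -0.10 for Tubb3 to 0.39 for Gap43. Gap43 kept the largest difference, at 0.13 ± 0.52 in E15 and -0.26 ± 0.56 in E12 cells (SD over 26 and 20 cells). It was also the 1 gene of the 9 past 2-fold on the deposited scale, where 2.87% of all genes were higher and 1.06% lower. For transplanted minus E12 cells the median was 0.55 before and 0.02 after removal, again with Gap43 alone past 2-fold, where 1.6% of all genes were higher and 1.95% lower. For transplanted minus E15 cells the median was -0.02 before and 0.03 after removal, with 0 of the 9 genes past 2-fold, where 0.767% of all genes were higher and 3.25% lower.

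**Figure D5:**
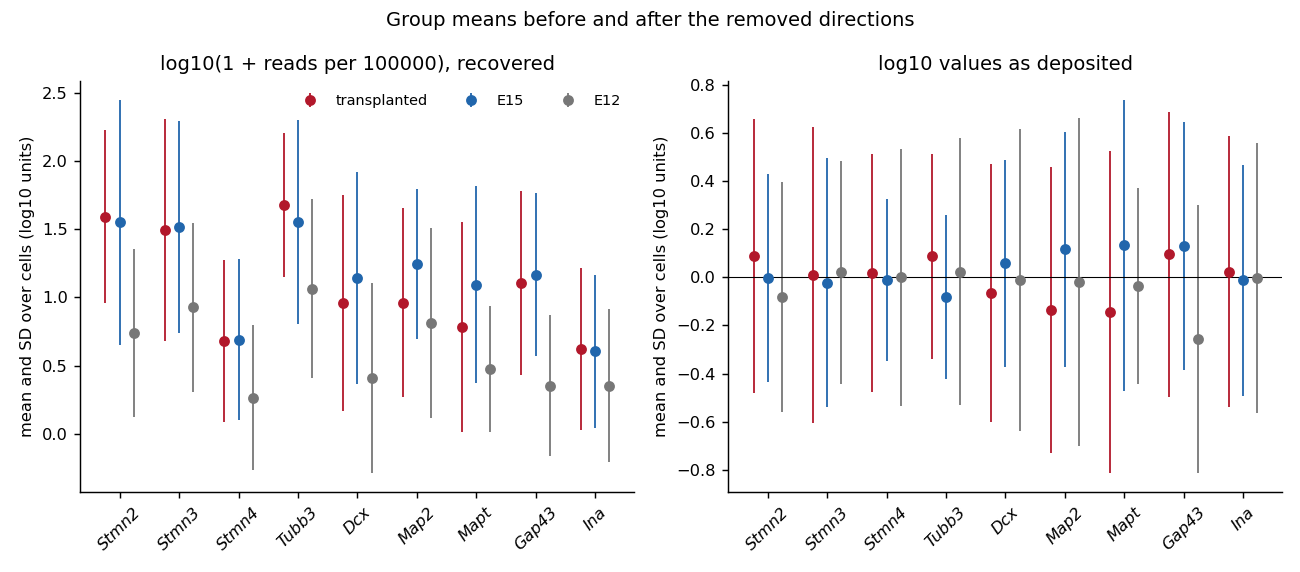
Group means and SD over cells of the 9 genes in transplanted, E15 and E12 cells, left as log10(1 + reads per 100000) recovered from the tables and right as the log10 values deposited after removal of further directions over cells. On the left the E12 mean is the lowest of the 3 groups for all 9 genes, whereas on the right most group means lie close to 0 and Gap43 at E12 (-0.26) stands lowest.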

How the data were processed

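Per the labels' protocols, single-cell cDNA was made with the SMART-Seq v4 3' DE kit, which counts transcripts at their 3' ends, and Nextera XT libraries were prepared. Per the submitters' processing notes STAR, HTSeq and mm10 were used, with no versions or settings given. The deposited values are log10 values: the authors took log10 of 1 plus reads scaled to 100000, centred each gene and regressed 2 more directions across the cells out of it, which was read from the values. The design had assumed counts, so reads were recovered by finding, for each of 10407 genes, the removed part that leaves whole reads. All 356667 non-zero values came within 0.01 of a whole number, and on simulated data 100% of 1531 genes were returned.

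Reads were summed per group and scaled to CPM. Ratios used a pseudocount of 1 CPM and genes with at least 5 CPM in either group. Limits of levels are exact Poisson and limits of ratios conditional binomial 95% limits. The replicate numbers are in accession order and name cells only. Of other genes, the text names for each list and comparison the 2 largest ratios among genes with at least 20 CPM and reads in at least 30% of cells, and the gene with the highest CPM. For likeness it names the 6 genes most correlated with the summed 9 genes. A choice from these was printed. The members, lists and limits were chosen with earlier results of these data known. Libraries above 8000 genes were left out as an alternative, and doublets were not called. Of the Cajal-Retzius list 0 of 4 genes and of the endothelial and pericyte list 1 of 9 were in the tables. Scripts ran in Python 3.11.15 with SciPy 1.17.1, NumPy 2.4.6, Numba 0.67.0, pandas 2.3.3 and, for plots, Matplotlib 3.10.9.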

Additional observations from a re-analysis of the deposited data

How the results depend on the processing

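Values are given for E15 over E12, transplanted over E15 and transplanted over E12, in this order. The median log2 ratio of the 9 genes was 2.46, 0.01 and 2.33. It was 1.48, -0.094 and 1.40 on mean CPM per cell, 2.87, -0.037 and 2.70 with TMM factors (which moved the median of all genes to 0.39, -0.13 and 0.29), and 2.03, 0.058 and 1.94 on reads thinned to 30000 per cell. Without libraries above 8000 genes it was 1.86, 0.078 and 1.73, and without those above 7000 genes 2.09, -0.56 and 1.26. Averaging the ratios made inside each pool gave 3.14, -0.070 and 2.82 (all genes 1.33, -0.63 and 0.80). On the deposited log10 values, turned to log2 units, it was 0.23, 0.090 and 0.057. On mean CPM per cell without libraries above 8000 genes, an alternative chosen after seeing the data, it was 0.82, -0.25 and 0.80. The cause of these shifts was not tested.

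Against E12, 7 genes stood past 2-fold higher in both comparisons; on the deposited values 1 did in each, and on mean CPM without libraries above 8000 genes 4 did in each. Between transplanted and E15 cells, where 0 stood past 2-fold, 2 were lower without libraries above 8000 genes and 2 within pools, 1 was lower on mean CPM without libraries above 8000 genes, and without libraries above 7000 genes 2 were higher and 4 lower. Leaving out E12 replicate 9, E12 replicate 19 or pool A gave 8 genes past 2-fold against E12. Leaving out single cells or pools moved the median between 1.88 and 3.62, between -0.17 and 0.12, and between 1.62 and 3.82. For single genes the sign of E15 over E12 turned for Dcx without libraries above 7000 genes (-0.026), for Stmn4 on mean CPM without libraries above 8000 genes (-0.10), on the deposited values for Stmn3 (-0.14), Stmn4 (-0.033), Tubb3 (-0.34) and Ina (-0.030), and for Ina also without E12 replicate 5 (-0.28), E15 replicate 10 (-0.24) or pool F (-0.25). For transplanted over E12 it turned on the deposited values for Stmn3 (-0.036), Dcx (-0.18), Map2 (-0.38) and Mapt (-0.36), for Map2 also on mean CPM without libraries above 8000 genes (-0.29), and for Ina without libraries above 8000 genes (-0.77), E12 replicate 5 (-0.19), transplanted replicate 6 (-0.0059) or pool C (-0.029). Other pseudocounts, filters on low values, totals without ribosomal and mitochondrial genes and leaving out cells under 30000 reads kept the 3 medians and counts close to those given first. No paired analysis was possible because the replicate numbers follow accession order and each group counts as 1 sample. Depth limits shares of cells with a read, since 8 of 65 libraries held under 30000 reads.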
